A study of Mus musculus with 6 samples.

Results

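The genes described here are the enzymes and the helper protein that turn arachidonic acid into leukotrienes and prostanoids. The list held 10 names: Ltc4s, Alox5, Alox5ap, Lta4h, Ptgs1, Ptgs2, Ptges, Pla2g4a, Tbxas1 and Hpgds. Of these, 9 had a row among the 18429 genes of the count matrix, and all 9 reached the minimum of 100 UMIs over all samples, as did 11913 genes in total. Ptgs1 was not analysed here. The list was chosen from gene names with measured values of these same samples already known, so every value below is a description and none was tested.

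The data were UMI counts (unique molecular identifiers, each standing for 1 captured transcript) from MARS-seq, a plate-based single-cell RNA-seq method, on macrophages grown from mouse bone marrow in medium with L929-conditioned supernatant. The 6 samples were wild-type (WT) and Rad21-/- cells, each untreated or given 10 ng/ml lipopolysaccharide (LPS) for 2 h or 8 h. Both genotypes carried creERT2 on both Rosa26 alleles and both received 200 nM 4-hydroxy-tamoxifen at 96 h of culture, so that the drug and the recombinase were common to all samples, and experiments were done on day 7. Rad21 encodes a subunit of cohesin, which had been deleted through this inducible Cre in cultured cells. Each condition was 1 sample, with 1362 cells in all and 1417409 to 2195921 UMIs per sample and a median of 5577 to 7055.5 UMIs per cell. Per the study's methods, mice were of a mixed genetic background, of both sexes, and between 6 weeks and 6 months old, and the labels do not say how many gave these cells. No sample had a replicate, and differences are therefore given with counting error only, which does not include the spread between cultures or mice.

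Each of the 24 library pools held cells of 1 treatment time, so time and pool cannot be told apart, whereas 18 pools held at least 10 cells of both genotypes and allowed WT and Rad21-/- cells to be set side by side. No pool and well barcode occurred in more than 1 sample. In pools 7, 23 and 24 (numbered in order of name), all WT cells had lower well barcode numbers than all Rad21-/- cells. Genotype and well range cannot be told apart there, and an effect of well position was not tested. The 17 wells with more than 25000 UMIs stood apart and held 1.71% to 45.5% of a sample's UMIs, the most in the WT 2 h sample. Levels are therefore given as mean CPM per cell (each cell's UMIs scaled to the same total), in which each well weighs the same, and shares of positive cells (at least 1 UMI) are also given after every cell was thinned at random to 3800 UMIs. Rad21 transcripts were found in 25.9%, 26.9% and 18.7% of WT cells (untreated, 2 h, 8 h) and in 2.96%, 6.45% and 5.80% of Rad21-/- cells. All 8 names of a macrophage marker list had a row, with summed levels of 7745 to 10365 CPM in WT and 6164 to 6855 CPM in Rad21-/- samples. Lyz2 held the largest part of these sums. Single genes differed in either direction: untreated, Lyz2 was at 6410 CPM in WT and 3365 CPM in Rad21-/- cells, and Csf1r at 294 and 457 CPM. Few names of the other lists had a row: neutrophils 2 of 8 (0 to 13.4 CPM summed), dendritic cells 2 of 5 (23.7 to 32.4), platelets and megakaryocytes 2 of 5 (9.94 to 19.4), fibroblasts 2 of 4 (1.58 to 9.55) and T and NK cells 1 of 5 (4.29 to 12.3). The last is Cd3g, a T cell gene, which was found in 2.59% to 9.38% of cells and is used below as a reference for low detection. Whether its counts are stray was not tested, and other marker genes differed, such as Col1a1 (0% to 2.72%) and Kit (18.8% to 30.4%). Cells were sorted into single wells, and no doublet caller was run.

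Eicosanoids are short-lived lipid mediators. Cytosolic phospholipase A2 (Pla2g4a) frees arachidonic acid from membranes. In the leukotriene branch, 5-lipoxygenase (Alox5) works with its activating protein (Alox5ap) to make leukotriene A4, which leukotriene A4 hydrolase (Lta4h) turns into the neutrophil attractant leukotriene B4, or leukotriene C4 synthase (Ltc4s) joins to glutathione to make the cysteinyl leukotrienes known from asthma. In the prostanoid branch, the cyclooxygenases make prostaglandin H2, Ptgs2 being the inducible form that is the target of many anti-inflammatory drugs. Terminal synthases then act on it: Ptges makes prostaglandin E2, Hpgds makes prostaglandin D2 and Tbxas1 makes thromboxane A2. Macrophages are a well-known source of both branches, and LPS is a classical inducer of Ptgs2 and Ptges.

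The members of widest range over the 6 samples were Ptgs2, Ptges and Ltc4s, and the 250 bases before an annotated start of each are shown because the results turn on these genes. They were taken from RefSeq (GRCm38.p6), and 9 of the 10 names had such a sequence. Ptgs2 lies on the plus strand, with the window at chr1:150099781-150100030. Ptges lies on the minus strand, with the window at chr2:30903298-30903547, inside the full annotated span of the gene. Ltc4s lies on the minus strand, with the window at chr11:50238533-50238782. Each is written 5′ to 3′ in the direction of its gene, with matches to any of 7 short motifs in capitals.
Ptgs2: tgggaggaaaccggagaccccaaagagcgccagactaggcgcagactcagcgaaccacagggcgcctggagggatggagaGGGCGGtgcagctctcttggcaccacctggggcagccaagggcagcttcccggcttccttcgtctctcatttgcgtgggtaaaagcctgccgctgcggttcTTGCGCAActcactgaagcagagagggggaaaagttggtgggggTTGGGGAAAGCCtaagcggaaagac
Ptges: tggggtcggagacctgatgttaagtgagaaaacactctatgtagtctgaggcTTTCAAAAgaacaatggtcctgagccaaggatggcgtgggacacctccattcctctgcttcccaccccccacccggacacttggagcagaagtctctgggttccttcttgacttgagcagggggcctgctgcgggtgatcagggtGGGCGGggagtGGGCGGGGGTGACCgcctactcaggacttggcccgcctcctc
Ltc4s: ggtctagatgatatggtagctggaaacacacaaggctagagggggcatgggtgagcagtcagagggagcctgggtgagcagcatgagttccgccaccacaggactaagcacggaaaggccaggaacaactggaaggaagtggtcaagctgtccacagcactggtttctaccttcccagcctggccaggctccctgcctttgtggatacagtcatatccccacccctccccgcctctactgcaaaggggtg

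The motifs, searched on both strands, were the TATA box TATAAA, a kappaB-type pattern (GGG, then 5 bases of any kind, then CC), a C/EBP-type pattern TTNNGNAA, the CRE core TGACG, the E-box CACGTG, the GC box GGGCGG and the AP-1-type pattern TGANTCA. The Ptgs2 window held the palindromic C/EBP-type match TTGCGCAA at -69 to -62, counted back from the annotated start. It also held a C/EBP-type match at -25 to -18 that overlaps a kappaB-type match at -23 to -14, and a GC box at -170 to -165. The Ptges window held GC boxes at -53 to -48 and at -42 to -37, the latter overlapping a kappaB-type match at -38 to -29, and a C/EBP-type match at -198 to -191. The Ltc4s window held none of the 7 letter patterns. Among 14405 promoter windows of the same length whose gene had a row, 57.7% held the kappaB-type pattern, 51.7% the GC box, 30.4% the C/EBP-type pattern, 24.4% the CRE core, 7.83% the E-box, 7.43% the TATA box and 4.94% the AP-1-type pattern. Most of these patterns are thus common, and a match is a description of letters, not of a bound site.

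Across the 9 genes, Ptgs2 and Ptges were high at 8 h of LPS and lower in Rad21-/- than in WT cells at that time. The leukotriene genes Alox5, Lta4h and Ltc4s were past 2-fold lower at 8 h than untreated in both genotypes, and Ltc4s was higher in Rad21-/- cells at every time. A gene is called past 2-fold below when its mean CPM differed at least 2-fold between 2 samples. In WT cells at 2 h, 2 of the 9 genes were past 2-fold higher than untreated (Ptgs2 and Ptges) and 0 lower, where 4.75% of all genes were higher and 5.43% lower. At 8 h in WT cells, 3 were higher (Ptgs2, Ptges and Pla2g4a) and 5 lower (Alox5, Alox5ap, Lta4h, Ltc4s and Hpgds), against 6.88% and 18.7% of all genes. For Rad21-/- cells at 2 h, 1 was higher (Ptgs2) and 0 lower, against 4.81% and 4.53% of all genes. At 8 h in Rad21-/- cells, 2 were higher (Ptgs2 and Ptges) and 4 lower (Alox5, Lta4h, Ltc4s and Hpgds), against 7.42% and 7.19%. The Ptges call at 2 h in WT cells is weak, with a thinned ratio of 5.82 (0.651 to 275), a log2 ratio of -0.69 against 2.59 when cells were thinned to 5500 UMIs, and 4.10 without pool 1 (pools are numbered in order of name). The Pla2g4a call in WT cells at 8 h was 0.93 against 1.21 with CPM of summed UMIs, under 2-fold. The comparisons within a genotype share their untreated sample and are not independent of each other.

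Between genotypes, 2 of the 9 were past 2-fold higher in untreated Rad21-/- cells (Ltc4s and Ptges) and 0 lower, against 2.64% and 5.67% of all genes. Ptgs2 had no UMI in either untreated sample and so could not be called there. The Ptges call rests on 6 against 3 UMIs, and on 0 against 1 UMI after thinning, and its log2 ratio was 0.69 with summed UMIs and 3.06 without pool 1 against 1.59. At 2 h, 1 was higher (Ltc4s) and 1 lower (Ptgs2), against 4.31% and 6.95%. With CPM of summed UMIs, in which deep wells weigh more, the shares of all genes were 6.94% and 1.59% for WT 2 h against untreated and 1.41% and 8.27% for genotype at 2 h. At 8 h, 2 were higher (Ltc4s and Alox5) and 2 lower (Ptgs2 and Ptges), against 10.5% and 4.69%. The median log2 ratio of all tested genes was -0.27 for WT 8 h against untreated and 0.22 for Rad21-/- against WT at 8 h, and within 0.1 of 0 in the other 5 comparisons. The medians of the 9 genes for these same contrasts were -1.30 and -0.29.

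**Figure D1:**
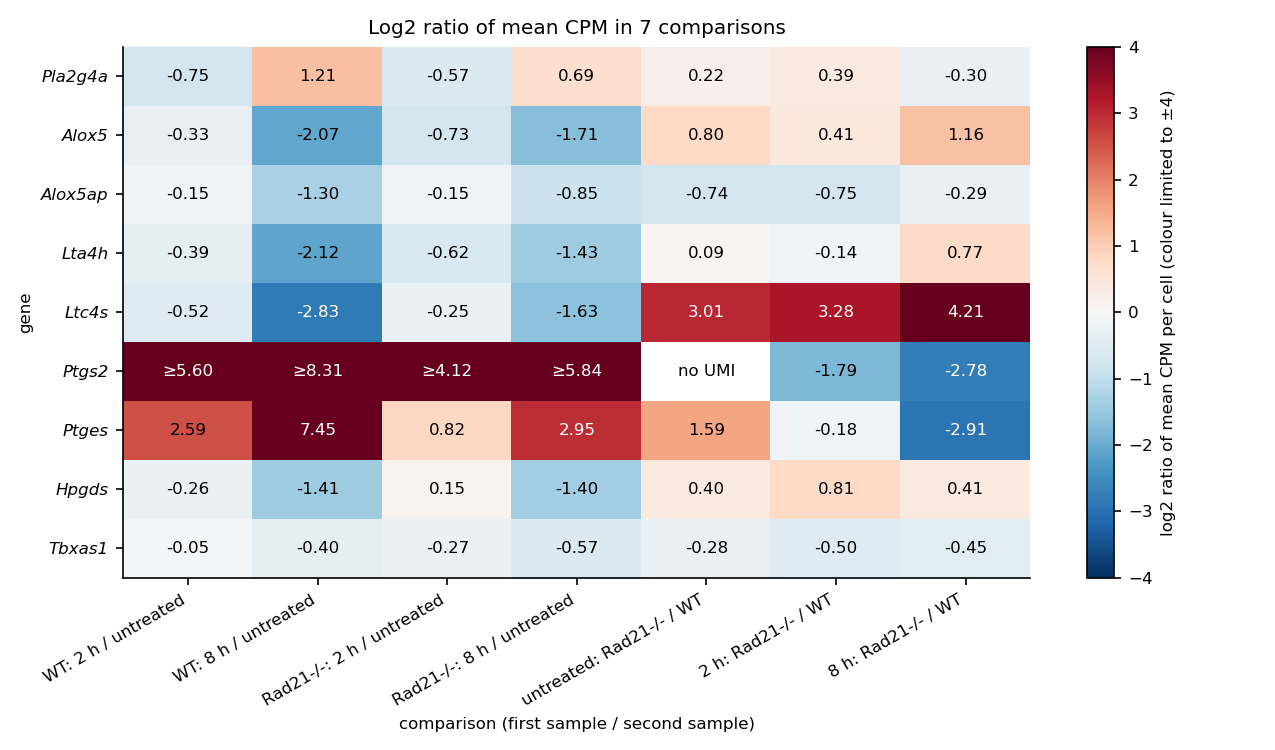
Log2 ratio of mean CPM per cell (colour and printed value) for the 9 genes (rows) in 7 comparisons (columns); "≥" marks a lower bound where the second sample had no UMI, computed against 3 counts. Ptgs2 and Ptges are positive in the LPS columns and negative in the 8 h genotype column (-2.78 and -2.91), whereas Ltc4s is positive in all 3 genotype columns (3.01, 3.28 and 4.21).

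Ptgs2 (chromosome 1, 150100031 to 150108234) was not detected before LPS. No UMI was found in 239 WT or 270 Rad21-/- untreated cells, so that detection in up to 1.26% and 1.11% of cells (3 counts) remains possible. This limit covers detected transcripts and not transcripts that went uncaptured. After LPS, its mean level was 99.0 CPM at 2 h and 648 CPM at 8 h in WT cells. The Rad21-/- levels were 28.6 CPM at 2 h and 94.4 CPM at 8 h. The transcript was thus found only after LPS in both genotypes, and the Rad21-/- level at 8 h was close to the WT level at 2 h. Against the 3-count floor of the untreated sample, WT cells were at least 48.5-fold higher at 2 h and at least 317.5-fold higher at 8 h, and Rad21-/- cells at least 17.3-fold and at least 57.3-fold higher. Thinned cells hold fewer UMIs and gave lower bounds, with log2 values of 4.37 against 5.60 (WT 2 h), 7.25 against 8.31 (WT 8 h), 3.27 against 4.12 (Rad21-/- 2 h) and 4.82 against 5.84 (Rad21-/- 8 h).

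The share of Ptgs2-positive WT cells was 36.6% at 2 h (68 cells, 95% Clopper-Pearson interval 29.6% to 43.9%) and 82.9% at 8 h (213 of 257, 77.7% to 87.3%). Among Rad21-/- cells it was 14.5% at 2 h (27 cells, 9.79% to 20.4%) and 39.3% at 8 h (88 of 224, 32.8% to 46.0%). The intervals of the genotypes did not overlap at either time. After thinning to 3800 UMIs per cell the shares were 27.9% and 75.9% in WT cells and 8.44% and 24.6% in Rad21-/- cells, in the same order.

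Rad21-/- cells had 3.47-fold less Ptgs2 than WT cells at 2 h and 6.86-fold less at 8 h. In thinned cells the WT level was 3.03-fold (95% interval 1.81 to 5.29) and 6.28-fold (4.94 to 8.08) that of Rad21-/- cells. The log2 ratio of -2.78 at 8 h split into -1.08 for the share of positive cells and -1.70 for the mean CPM of positive cells. At 2 h, the ratio of -1.79 split into -1.33 and -0.46, so that the share was the larger part there. In thinned cells, which all hold the same total of UMIs, the share part was the larger at both times. It was -1.72 at 2 h and -1.62 at 8 h, against 0.12 and -1.03 for the level part. The division between share and level at 8 h therefore depended on whether depth was equalised. With few UMIs per cell a lower level also lowers the share of positive cells, so these splits do not separate share from level. A positive WT cell held 3.14 thinned Ptgs2 UMIs on average at 8 h, and a positive Rad21-/- cell held 1.54.

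The same order was seen inside the pools. Rad21-/- cells were lower in 4 of 4 pools at 2 h and in 6 of 6 pools at 8 h. At 8 h the pools ranged from 506 to 829 CPM for WT cells and from 63.4 to 116.4 CPM for Rad21-/- cells, with no overlap. At 2 h they ranged from 57.6 to 155.9 CPM and from 15.6 to 45.7 CPM, again with no overlap. A few cells held much of the raw sum, since the 10 cells with the most Ptgs2 UMIs held 66.7% of the WT UMIs at 2 h and 57.4% of the Rad21-/- UMIs at 8 h.

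Ptgs2os2, a non-coding gene downstream of Ptgs2 that does not overlap it, had 1, 4 and 23 UMIs in the WT samples (untreated, 2 h, 8 h) and 0, 0 and 9 in the Rad21-/- samples. Its higher counts lay in the 8 h samples, as for Ptgs2, but they are too few for a level. Pla2g4a lies on the same chromosome, with 138.7 kb between its gene body and that of Ptgs2.

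Ptges (chromosome 2, 30889471 to 30931020), the microsomal synthase that is coupled to Ptgs2 in prostaglandin E2 synthesis, was a late gene. Mean levels were 1.15 CPM untreated, 6.91 CPM at 2 h and 200.4 CPM at 8 h in WT cells. Those in Rad21-/- cells were 3.46, 6.10 and 26.6 CPM. Only the 8 h samples stood clear of the others, since the untreated and 2 h samples held 3, 22, 6 and 9 UMIs (WT untreated, WT 2 h, Rad21-/- untreated, Rad21-/- 2 h). In WT cells the 8 h level was 29.01-fold that at 2 h, compared with 6.54-fold for Ptgs2. The corresponding Rad21-/- values were 4.37-fold for Ptges and 3.31-fold for Ptgs2. The ratio of WT 8 h to untreated was 175-fold, on 3 UMIs in the untreated sample, and the thinned counts gave 155.8-fold with an interval of 27.6 to 6186. The log2 ratio of 7.45 was 8.96 without pool 1 and 6.42 at 5500 UMIs.

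The share of Ptges-positive cells at 8 h was 42.4% in WT cells (109 of 257, 36.3% to 48.7%) and 19.6% in Rad21-/- cells (44 of 224, 14.7% to 25.5%), and after thinning 37.3% and 9.36%. At 2 h the shares were 5.91% and 4.30%, inside the range of Cd3g. The thinned ratio of Rad21-/- to WT at 2 h was 1.07 (0.247 to 4.66), so a genotype difference was not detectable there. Rad21-/- cells were 7.52-fold lower at 8 h (thinned 8.24-fold, 5.18 to 13.8). The log2 ratio of -2.91 split into -1.11 for the share and -1.80 for the level in positive cells, and in thinned cells into -1.99 and -1.05. As for Ptgs2, these splits do not separate share from level. All 6 pools had the lower level in Rad21-/- cells, at 9.81 to 57.5 CPM against 98.8 to 306 CPM in WT cells.

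**Figure D2:**
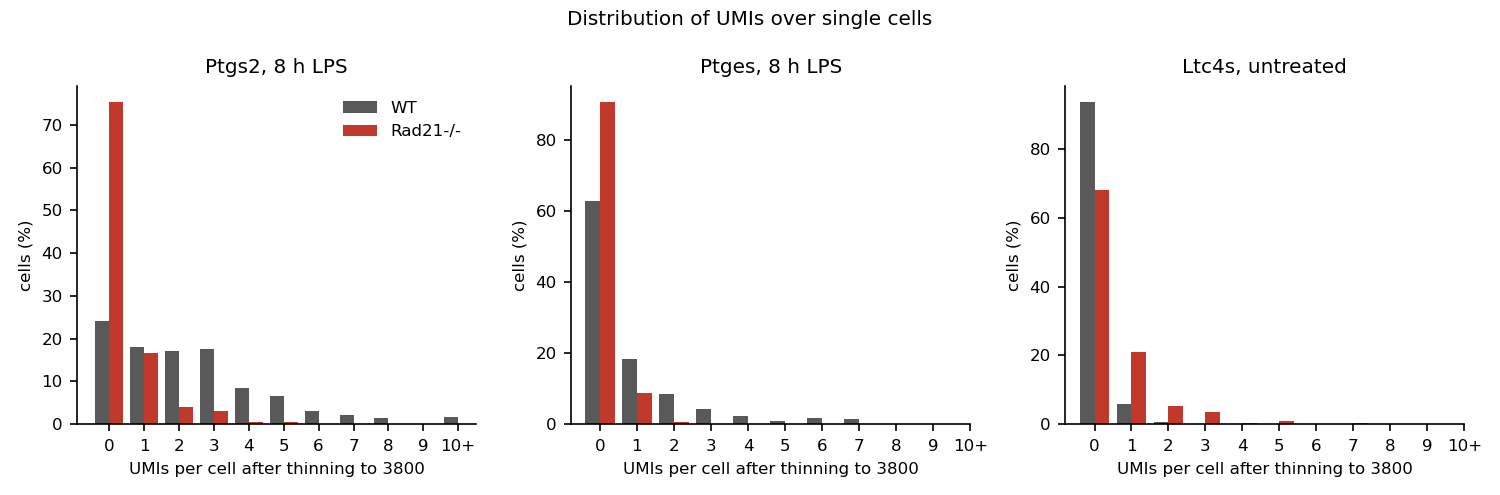
Share of cells (y axis, %) by number of UMIs per cell after thinning to 3800 UMIs (x axis) for Ptgs2 and Ptges at 8 h and Ltc4s untreated, WT grey and Rad21-/- red. Of the WT cells, 24.1% had no Ptgs2 UMI at 8 h compared with 75.4% of Rad21-/- cells, whereas 93.8% of untreated WT cells and 68.2% of untreated Rad21-/- cells had no Ltc4s UMI.

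Whether the 2 inducible enzymes were found in the same cells was examined in thinned data. In WT cells at 8 h, Ptges was found in 40.5% of Ptgs2-positive cells (70 of 173, 33.1% to 48.2%) and in 27.3% of Ptgs2-negative cells (15 of 55, 16.1% to 40.96%). The Rad21-/- values at 8 h were 8.00% (4 of 50, 2.22% to 19.2%) and 9.80% (15 cells, 5.59% to 15.7%). The intervals overlapped in both genotypes, and whether the transcripts were associated was not tested.

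Hpgds (chromosome 6, 65117293 to 65144981), the synthase of prostaglandin D2, behaved differently from Ptges. Its mean levels were 145.2, 121 and 54.8 CPM in WT cells (untreated, 2 h, 8 h) and 191, 212 and 72.5 CPM in Rad21-/- cells. The gene was expressed before LPS and lower at 8 h, by 2.65-fold in WT and 2.63-fold in Rad21-/- cells. Its shares were 55.2%, 53.8% and 26.5% in WT cells and 66.3%, 69.4% and 39.7% in Rad21-/- cells. Rad21-/- cells were 1.32-fold, 1.75-fold and 1.32-fold higher at the 3 times, and higher in 8 of 8 pools untreated, in 4 of 4 at 2 h and in 4 of 6 at 8 h. These differences stayed under 2-fold, and the pool ranges of the genotypes overlapped. Thinned ratios of Rad21-/- to WT were 1.39 (1.07 to 1.80) untreated, 1.63 (1.22 to 2.20) at 2 h and 1.08 (0.714 to 1.63) at 8 h.

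Tbxas1 (chromosome 6, 38864159 to 39084590), thromboxane synthase, was the steadiest member. Its mean levels were 50.3, 48.4 and 37.98 CPM in WT cells and 41.3, 34.2 and 27.8 CPM in Rad21-/- cells. No comparison passed 2-fold, and Rad21-/- cells were lower in 6 of 8, 4 of 4 and 4 of 6 pools. Its gene body overlaps that of Hipk2 and of several non-coding genes. Per the study's methods only reads mapped without ambiguity were counted, and how reads inside such an overlap were treated is not stated. Alox5 and Ptges overlap annotated non-coding genes or a pseudogene that were not used here, and whether counting used the strand is not stated.

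**Figure D3:**
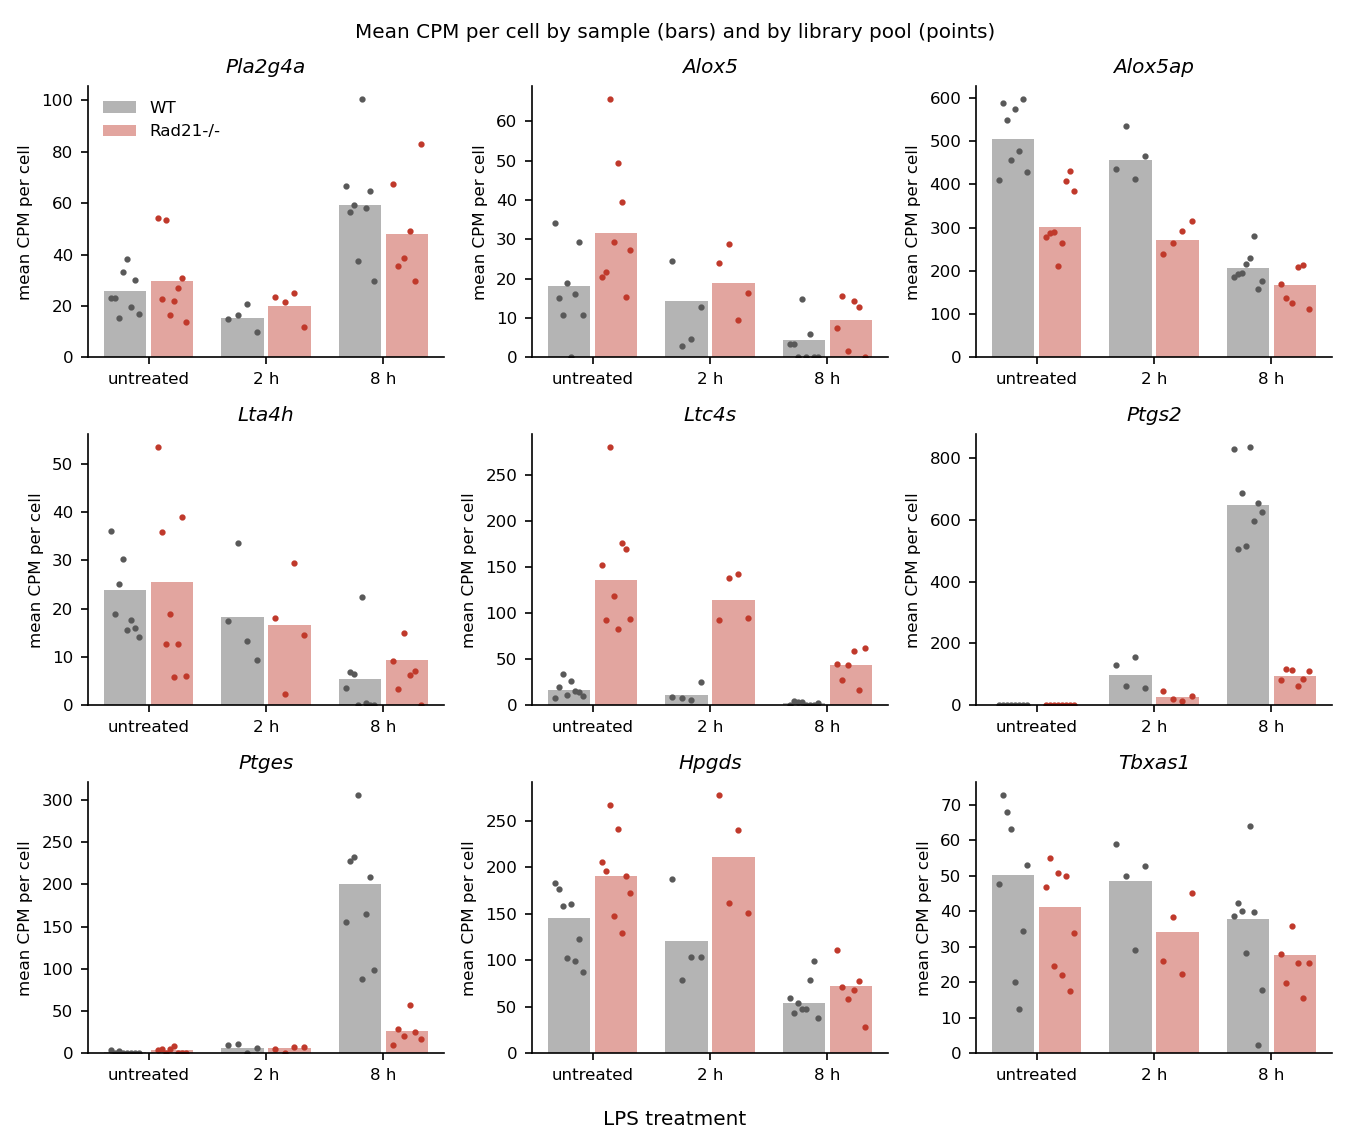
Mean CPM per cell (y axis) of the 9 genes in untreated, 2 h and 8 h LPS samples (x axis), WT grey and Rad21-/- red; bars are samples and points are library pools with at least 10 cells. The 8 h bars of Ptgs2 (648 and 94.4 CPM) and Ptges (200.4 and 26.6 CPM) differ by genotype with no overlap of their pools, and Ltc4s is at 44.0 to 136.6 CPM in the red bars and at 2.38 to 16.97 CPM in the grey bars.

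Ltc4s (chromosome 11, 50236461 to 50238532) had the opposite order of genotypes. Its mean levels were 16.97, 11.8 and 2.38 CPM in WT cells (untreated, 2 h, 8 h), from 22, 24 and 6 UMIs. Levels in Rad21-/- cells were 136.6, 114.8 and 44.0 CPM, from 80 to 232 UMIs per sample. Every Rad21-/- sample thus lay above every WT sample, including the Rad21-/- sample at 8 h, where the level was lowest. The ratios were 8.05-fold untreated, 9.70-fold at 2 h and 18.5-fold at 8 h. In thinned cells they were 7.68-fold (4.32 to 14.9), 11.1-fold (4.81 to 31.3) and 32.6-fold (5.40 to 1330), the last on a single WT UMI. The size of the 8 h ratio is therefore poorly determined, and whether it differed from the untreated ratio was not tested. Among the 11892 to 11910 genes compared, with samples at 0 UMIs set to 3 counts, 3, 3 and 4 genes had a larger ratio of Rad21-/- to WT at the 3 times. The log2 ratio at 2 h was 4.05 without pool 16 against 3.28.

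Ltc4s transcripts were found in 8.37% of untreated WT cells (20 of 239, 5.19% to 12.6%), 9.68% at 2 h (18 cells, 5.84% to 14.9%) and 1.95% at 8 h (5 of 257, 0.635% to 4.48%). The Cd3g shares in the same samples were 4.18%, 6.45% and 7.00%. WT Ltc4s was thus found more often than this T cell gene untreated and at 2 h, and less often at 8 h. Whether the WT Ltc4s counts are stray was not tested. Shares in Rad21-/- cells were 44.1% (119 of 270, 38.1% to 50.2%), 44.1% (82 cells, 36.8% to 51.5%) and 26.8% (60 of 224, 21.1% to 33.1%), well above the Cd3g range. The log2 ratio of 3.01 in untreated cells split into 2.40 for the share and 0.61 for the level in positive cells. Positive Rad21-/- cells held a median of 1 UMI, and the highest count in a cell was 8. At so few UMIs a higher level also raises the share of positive cells, so this split does not separate share from level.

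Within pools, Ltc4s was higher in Rad21-/- cells in 8 of 8 untreated pools (82.8 to 280 CPM against 8.06 to 33.9 CPM). It was also higher in 4 of 4 pools at 2 h (92.5 to 143 against 6.36 to 25.3 CPM) and in 6 of 6 at 8 h (16.6 to 62.7 against 0 to 5.12 CPM). The pool ranges of the genotypes did not overlap at any time. At 8 h of LPS, Ltc4s was lower than in the untreated sample in both genotypes, by 7.13-fold in WT and 3.10-fold in Rad21-/- cells. The WT value rests on 6 UMIs at 8 h, where the share of positive cells was below that of Cd3g. It was 15.4-fold in thinned cells (2.32 to 656) and -2.19 on the log2 scale with summed UMIs against -2.83. The Rad21-/- value was 3.64-fold in thinned cells (2.41 to 5.68).

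**Figure D4:**
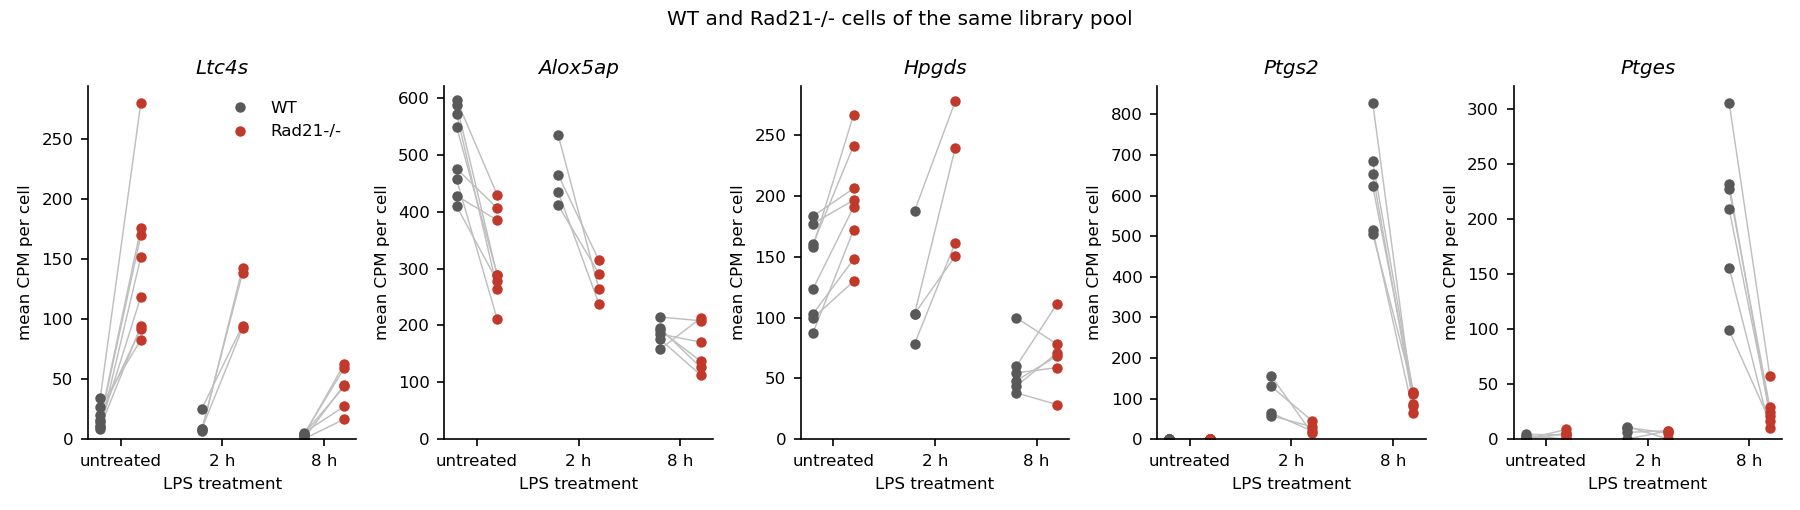
Mean CPM per cell (y axis) of WT (grey) and Rad21-/- (red) cells in the same library pool, joined by a line, for 5 genes by LPS treatment (x axis). All 18 lines of Ltc4s go up from WT to Rad21-/- and all 10 lines of Ptgs2 after LPS go down.

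Mast cells, basophils and eosinophils are the classical sources of leukotriene C4 outside macrophages, so their markers are given beside Ltc4s. Of 8 mast cell and basophil names only Kit and Cpa3 had a row, and their summed level was 69.8, 48.9 and 50.9 CPM in WT and 61.6, 43.8 and 59.8 CPM in Rad21-/- cells, without the genotype order of Ltc4s. Of the eosinophil list only Ccr3 had a row, at 0 to 3.21 CPM. The B cell list, with Ighm and Ms4a1 measured out of 5 names, did move with Ltc4s, at 23.9 to 49.01 CPM in WT and 170 to 181 CPM in Rad21-/- samples. This was Ighm alone (11.8 to 40.2 CPM in WT, 159 to 176 CPM in Rad21-/-), since Ms4a1 was at 8.82 to 12.1 CPM and 5.14 to 16.7 CPM. In untreated Rad21-/- cells after thinning, Ltc4s was found in 28.4% of Ighm-positive cells (27 of 95, 19.6% to 38.6%) and in 34.4% of Ighm-negative cells (44 of 128, 26.2% to 43.3%), a pair looked at after its levels were seen. The part of Ighm-expressing cells in the Ltc4s result was not tested beyond these values.

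Alox5ap (chromosome 5, 149265004 to 149288153), which presents arachidonic acid to 5-lipoxygenase, was found in most cells. Its mean levels were 505, 455 and 206 CPM in WT cells and 302, 272 and 168 CPM in Rad21-/- cells. Unlike Ltc4s, it was lower in Rad21-/- cells, by 1.67-fold untreated, 1.68-fold at 2 h and 1.22-fold at 8 h, all under 2-fold. With cells thinned to 5500 UMIs, the log2 ratio at 2 h was -1.01 against -0.75, just past 2-fold. The pool ranges at 2 h did not overlap (411 to 535 CPM in WT and 238 to 314 CPM in Rad21-/-), and Rad21-/- cells were lower in 8 of 8, 4 of 4 and 5 of 6 pools. Thinned ratios of Rad21-/- to WT were 0.596 (0.507 to 0.700), 0.534 (0.434 to 0.654) and 0.778 (0.614 to 0.984). Shares were 89.96%, 90.9% and 63.8% in WT and 73.3%, 70.4% and 62.1% in Rad21-/- cells. The 8 h level was below the untreated level in both genotypes, by 2.45-fold and 1.80-fold.

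The genotype difference in Ltc4s and that in Alox5ap had opposite signs, and the 2 transcripts were also set side by side in single cells. In untreated Rad21-/- cells after thinning, Ltc4s was found in 28.3% of Alox5ap-positive cells (41 cells, 21.1% to 36.3%) and in 38.5% of Alox5ap-negative cells (30 of 78, 27.7% to 50.2%). At 2 h the values were 25.9% (22 of 85) and 33.3% (23 of 69), and at 8 h 12.05% (10 of 83) and 13.3% (16 of 120). The intervals overlapped at each time, and whether Ltc4s and Alox5ap transcripts were associated was not tested.

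Alox5 (chromosome 6, 116410071 to 116461178), the 5-lipoxygenase itself, was sparse. Mean levels were 18.1, 14.4 and 4.32 CPM in WT cells, from 29, 40 and 6 UMIs. Rad21-/- cells had 31.6, 19.03 and 9.64 CPM, from 61, 26 and 20 UMIs. The 8 h level was lower than the untreated one by 4.19-fold in WT (thinned 5.05-fold, 1.65 to 20.6) and 3.27-fold in Rad21-/- cells (thinned 2.39-fold, 1.02 to 6.24). The WT log2 ratio was -3.11 without pool 20 against -2.07. The 2.23-fold higher level of Rad21-/- cells at 8 h rests on few UMIs, with a thinned interval of 0.602 to 10.2, and was seen in 4 of 6 pools, so it was not separable from counting error. Its log2 ratio of 1.16 was 0.85 without pool 18, under 2-fold, and 2.00 without pool 20. Untreated, the 1.74-fold ratio was 1.06 (0.534 to 2.15) in thinned cells. In thinned untreated WT cells, Alox5ap was found in 56.25% of Alox5-positive cells (9 of 16, 29.9% to 80.2%). The share among Alox5-negative cells was 85.2% (150 of 176, 79.1% to 90.1%). Untreated Rad21-/- cells had the other order, at 78.9% (15 of 19) and 63.7% (130 of 204). Of the LPS samples, only Rad21-/- at 2 h had the untreated WT order. The intervals overlapped in each sample, and an association was not tested.

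Lta4h (chromosome 10, 93453396 to 93484896) was likewise sparse and lower at 8 h. Its levels were 24.0, 18.3 and 5.52 CPM in WT and 25.5, 16.5 and 9.43 CPM in Rad21-/- cells. The 8 h level was 4.34-fold below untreated in WT and 2.70-fold below in Rad21-/- cells, and thinned ratios of 8 h to untreated were 0.241 (0.0795 to 0.616) and 0.395 (0.162 to 0.876). The WT log2 ratio was -2.84 without pool 21 against -2.12. No genotype comparison passed 2-fold, and every thinned genotype interval held 1. Unlike Ltc4s, Lta4h thus had no genotype difference that could be seen at this depth.

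Pla2g4a (chromosome 1, 149829618 to 149961290), at the entry of the pathway, was the other member with a higher level at 8 h. Its levels were 25.7, 15.3 and 59.2 CPM in WT and 29.8, 20.0 and 48.0 CPM in Rad21-/- cells. In both genotypes the 2 h sample was the lowest and the 8 h sample the highest. From 2 h to 8 h the ratio was 3.87-fold in WT and 2.40-fold in Rad21-/- cells. The 8 h level was 2.31-fold above untreated in WT (thinned 2.19-fold, 1.28 to 3.87) and 1.61-fold above in Rad21-/- cells (thinned 1.20-fold, 0.719 to 2.03). Genotypes differed by under 1.5-fold at every time, and Rad21-/- cells were higher in 4 of 8, 4 of 4 and 3 of 6 pools. At 8 h the mean was lower in Rad21-/- cells, as for Ptgs2, but only by 1.23-fold. The thinned ratio of Rad21-/- to WT at 8 h was 0.734 (0.462 to 1.15).

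**Figure D5:**
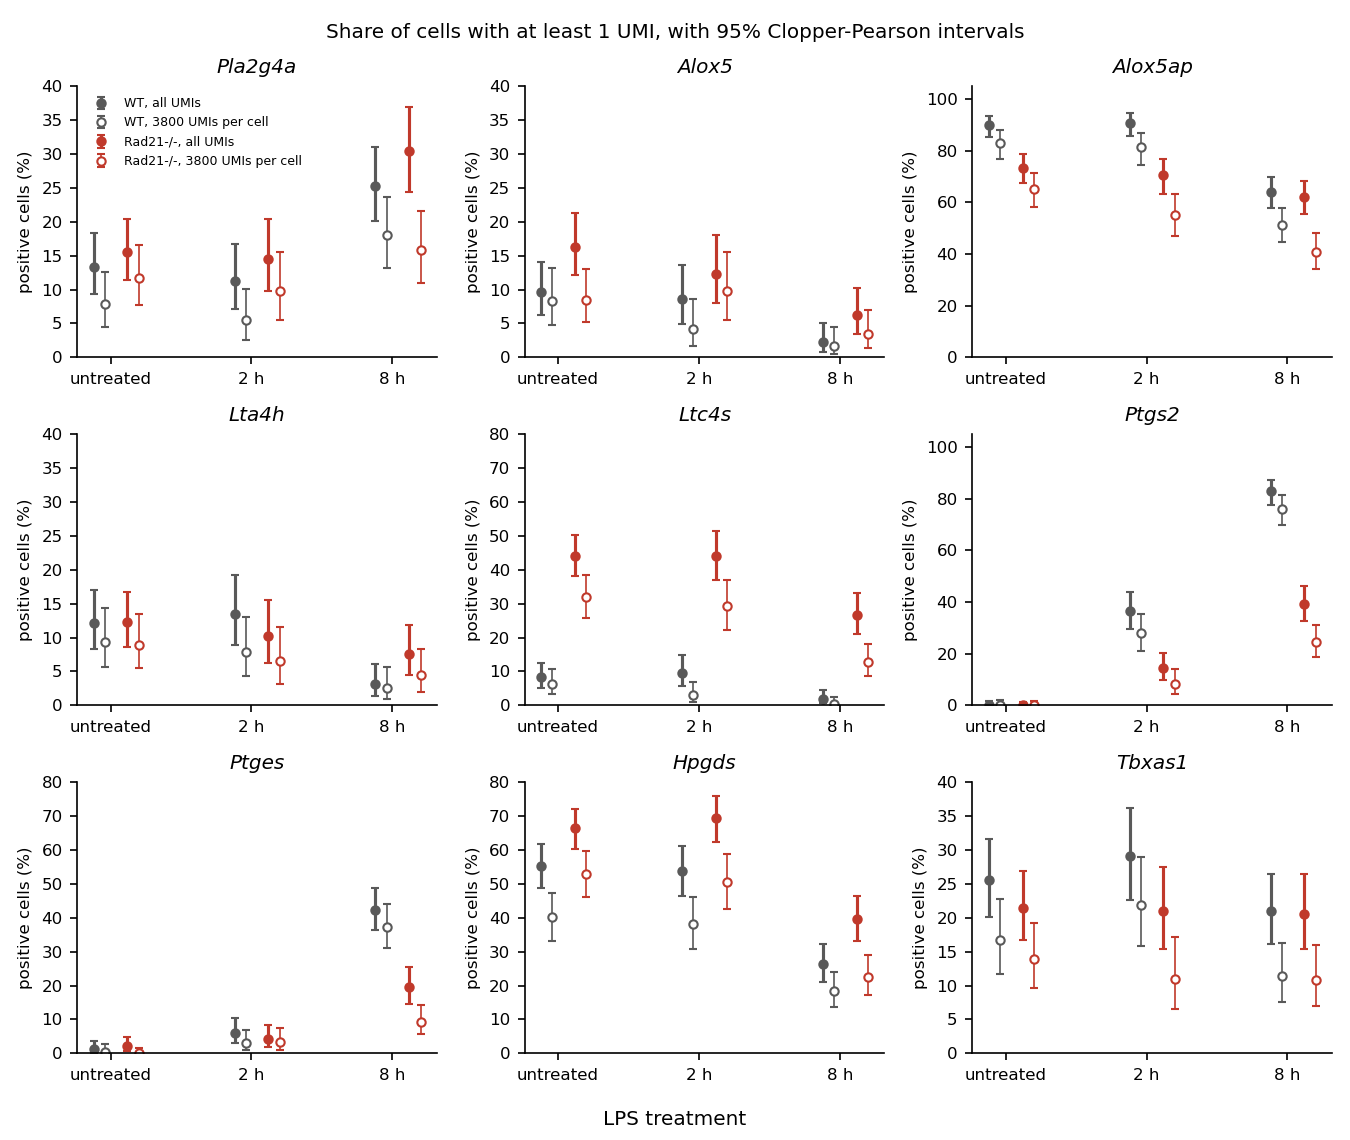
Share of cells with at least 1 UMI (y axis, %) by LPS treatment (x axis), WT grey and Rad21-/- red, with 95% Clopper-Pearson intervals; filled points use all UMIs and open points cells thinned to 3800 UMIs. Ltc4s is at 44.1%, 44.1% and 26.8% in Rad21-/- cells and under 10% in WT cells, and the y axes differ between panels.

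The rest of the pathway was followed in 7 wider lists of 70 further eicosanoid genes, 49 with a row and 36 with at least 100 UMIs. In WT cells 2 of 36 were past 2-fold higher at 2 h and 3 at 8 h (4.75% and 6.88% of all genes), and 6 and 10 were lower (5.43% and 18.7%). Among Rad21-/- samples 3 and 6 were higher (4.81% and 7.42% of all genes) and 2 and 6 lower (4.53% and 7.19%). Between genotypes, 2, 4 and 5 were higher in Rad21-/- cells (untreated, 2 h, 8 h; 2.64%, 4.31% and 10.5% of all genes) and 7, 7 and 6 lower (5.67%, 6.95% and 4.69%). The medians over the 36 genes were -0.12 and -0.23 (WT) and -0.09 and -0.15 (Rad21-/-) for LPS and -0.36, -0.14 and -0.23 for genotype. Over all tested genes they were -0.09, -0.27, -0.04 and -0.03, and -0.05, 0.01 and 0.22. Fpr2, among the 36, had no ratio for Rad21-/- cells at 2 h against untreated or for the untreated genotypes. It is left out of the medians and calls of these comparisons.

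Among phospholipases A2 (5 tested), Pla2g16 was higher at 8 h, as Pla2g4a was, at 168 against 29.4 CPM untreated in WT and 126 against 22.9 CPM in Rad21-/- cells. Pla2g15, a lysosomal phospholipase, was higher in Rad21-/- cells at all times, at 89.6, 67.4 and 24.2 CPM against 38.1, 18.9 and 8.93 CPM. Of 6 lipoxygenases other than Alox5, 2 had a row and 0 reached 100 UMIs. Of 4 tested other prostanoid synthases, Cbr1 and Fam213b were lower at 8 h in both genotypes.

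Of 6 tested genes for Ltc4s relatives, export and cleavage, Mgst3, a microsomal glutathione transferase, was higher in Rad21-/- cells at 2 h and 8 h (85.8 and 80.4 CPM against 42.7 and 24.0 CPM). None of the 6 reached the genotype ratios of Ltc4s.

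Of 5 tested receptors, Cysltr1, the receptor for cysteinyl leukotrienes, was lower in Rad21-/- cells at all times, at 8.32, 9.16 and 5.60 CPM against 24.6, 18.99 and 21.6 CPM. Its Rad21-/- shares of 4.44%, 7.53% and 4.91% lay inside the range of Cd3g, and its WT shares were 12.97%, 13.98% and 12.45%. The ligand-side enzyme Ltc4s and this receptor thus had opposite genotype orders. Fpr2, which binds lipoxin A4 and formyl peptides, followed the inducible pattern of Ptges, with 1.33, 6.51 and 179.6 CPM in WT cells and 0, 0 and 40.4 CPM in Rad21-/- cells. Ptger4 and Ptgir, receptors for prostaglandin E2 and prostacyclin, were lower in untreated Rad21-/- cells (4.99 and 3.62 CPM against 15.9 and 22.0 CPM). Both were sparse, found in 3.33% and 2.22% of these cells against 7.95% and 8.79% of WT cells. These shares are inside or below the range of Cd3g, so both differences rest on rare detection.

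Hpgd, the enzyme that inactivates prostaglandin E2, had the opposite course to Ptges. Its levels were 78.8, 55.6 and 8.08 CPM in WT and 115.3, 72.7 and 8.19 CPM in Rad21-/- cells. The 8 h level was 9.75-fold and 14.1-fold below untreated, with no 2-fold difference between genotypes at any time. Ptges was thus higher and its opposing enzyme lower at 8 h, but the genotype order of Ptges was not seen for Hpgd. Of 11 tested arachidonate handling genes, Acsl1 was higher at 8 h in both genotypes (157 CPM in WT and 53.03 CPM in Rad21-/-). Fabp4 and Anxa1 were lower in Rad21-/- cells at all times, Fabp4 at 52.7, 159 and 117 CPM against 249, 445.5 and 326 CPM.

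The 3 genes whose profile over the 6 samples was most like that of Ptgs2, by the root mean square difference of centred log2(mean CPM + 10) among 4057 genes with at least 500 UMIs, were Rsad2 (0.55), Edn1 (0.57) and Ccl12 (0.62). For Ptges they were AA467197 (0.28), Lipg (0.35) and Slc28a2 (0.45). For Ltc4s they were Sepp1 (0.28), Rnase4 (0.44) and Ighm (0.48). Sepp1, a selenium transport protein, was at 954, 729 and 441 CPM in WT and at 3066, 3506 and 1422 CPM in Rad21-/- cells. The likeness is over 6 samples only and is a description.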

How the data were processed

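The deposited data are UMI counts per gene and cell, which the authors left without normalization. Per the study's methods, single macrophages were sorted into plates, MARS-seq reads were demultiplexed by pool and cell barcode, polyT sequence was removed, reads were mapped with GEMTools 1.7.0 to GRCm38 p4 with Gencode M8, and UMIs were collapsed. FastQC is named in the submitters' processing notes. Doublets were not called here. Every cell was assigned to its sample and pool by name.

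Genes with at least 100 UMIs over all samples were compared by the log2 ratio of mean CPM per cell, called at 2-fold, with a sample at 0 UMIs set to 3 counts. With 1 sample per group no test was made, and 95% intervals (Clopper-Pearson for shares, Poisson or conditional binomial for sums) cover counting error only. Thinning was seeded, and left out 21 to 47 cells per sample at 3800 UMIs. Named genes were the members, a choice of the wider-list genes past 2-fold made with their values known, the 3 genes most alike to each of the 3 members of widest range, marker genes and Rad21. Members and lists were chosen with earlier results of these data known. Gene positions come from a RefSeq table for GRCm38.p6, in which 16122 of 18429 genes had a symbol. Python 3.11.15, numpy 2.4.6, pandas 2.3.3, scipy 1.17.1 and matplotlib 3.10.9 were used, and the scripts were tested on simulated data.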

Additional observations from a re-analysis of the deposited data

Results flagged for a closer look

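These results have opposite signs in different samples, each from 1 sample per group, and none of the differences was tested. Pla2g4a in Rad21-/- against WT cells had a log2 ratio of 0.22 untreated, 0.39 at 2 h and -0.30 at 8 h. Against untreated cells it was -0.75 at 2 h and 1.21 at 8 h in WT cells, and -0.57 and 0.69 in Rad21-/- cells. Lta4h in Rad21-/- against WT cells was 0.09, -0.14 and 0.77 at the 3 times. Ptges in Rad21-/- against WT cells was 1.59 untreated (6 against 3 UMIs), -0.18 at 2 h and -2.91 at 8 h. Hpgds at 2 h against untreated was -0.26 in WT and 0.15 in Rad21-/- cells, and the Rad21-/- value at 8 h was -1.40.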

How the results depend on the processing

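The alternatives were CPM of summed UMIs, CPM over less abundant genes, thinning to 3800 or 5500 UMIs, leaving out wells with more than 25000 UMIs, each pool weighted alike, each pool omitted in turn, no filter on low counts, and positivity from 2 UMIs. Each member log2 ratio was set against each alternative and counted as a pair. Of these pairs 1108 stayed within counting error, 764 of them with a pool left out. Another 37 pairs moved by more, and in 1 pair a ratio past 2-fold took the opposite sign. A further 13 ratios, all under 2-fold, changed sign under at least 1 alternative. The one past 2-fold was Ptges in WT cells at 2 h against untreated, -0.69 at 5500 UMIs against 2.59, where the number of members past 2-fold went from 2 to 1. For Rad21-/- cells at 2 h against untreated the count was 2 at 3800 UMIs against 1, and 1 to 2 when each pool was left out, with 2 without pool 5, 14 or 15 in order of pool name. For untreated Rad21-/- against WT cells it was 1 with summed UMIs and at 3800 and 5500 UMIs, against 2. For Rad21-/- against WT at 2 h it was 4 at 5500 UMIs, against 2. Counts of wider-list genes past 2-fold stayed within 1.5-fold in 111 (higher) and 118 (lower) cases and moved further in 18 and 11. Of the shares of positive cells 587 stayed within their interval, and of those that moved 52 did so with positivity from 2 UMIs and 39 at 3800 UMIs. The Ltc4s ratios for genotype ranged from 2.28 to 5.09 over the alternatives, each omitted pool included, and those of Ptgs2 from -1.12 to -2.93. No paired analysis was possible because each group is 1 sample and the labels carry no replicate numbers, and the library pools, which divide the same samples, were set side by side as a description only. Depth limits Alox5, Lta4h, WT Ltc4s, and Ptges before 8 h, which rest on few UMIs per sample.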
